A study of Homo sapiens with 2 samples.

Results

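The genes described here are enzymes and regulators of cholesterol and fatty acid synthesis, 35 symbols in all, measured in liver progenitors made from human embryonic stem cells. They were listed by their place in the pathway, and their rows were taken from the deposited RPKM table (read counts divided by gene length and by sequencing depth, so that genes can be compared per length) by gene identifier. Of the 35 symbols, 34 were matched, among 57158 rows in the table and 19344 protein-coding symbols with a value. ACACA, the cytosolic acetyl-CoA carboxylase, was not matched and is not analysed here. Not every enzyme of these pathways is among the 35.

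The cells came from the embryonic stem cell line CyT49. They were at the definitive endoderm stage on day 2 and were then fed daily for 6 days, in suspension, with RPMI medium that held 50 ng/ml BMP4, 10 ng/ml FGF2 and 0.2% FBS (serum). RNA was taken at day 8, and both libraries shared this treatment. The data analysed here are 2 libraries of this 1 group, with no untreated, earlier or mature sample beside them. What follows is therefore a description of levels, compared between genes and with all protein-coding genes. The labels name no sort, the cells come from 1 line, and in bulk RNA fewer expressing cells and less RNA per cell cannot be told apart.

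Cells build cholesterol from acetyl-CoA through mevalonate, isoprenoid diphosphates, squalene and lanosterol. Fatty acids are built from the same acetyl-CoA, then lengthened and desaturated. Transcription of both pathways is known to be driven by the SREBP factors, which are held in the endoplasmic reticulum with SCAP and the INSIG proteins while sterol is plentiful. When sterol falls, SCAP carries SREBP to the Golgi, where the site-1 and site-2 proteases release its active part. The liver is a main site of both pathways in the body.

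SREBP acts on promoters together with NF-Y and Sp1, and the letters of these factors' motifs were searched in promoter windows of the members. Windows were RefSeq sequences on GRCh38.p14 of 300 bases, from 250 before to 50 after the annotated start, and 30 of the 34 members had one (all but ACAT2, FDFT1, SQLE and FASN). The 250 bases before the start are shown for 5 members at different levels, chosen after their motifs and levels were seen. Capitals mark the NF-Y box CCAAT on either strand and, in SREBF2 alone, TCACCCCAC, which holds the core of the sterol regulatory element. The windows, each read 5′ to 3′ on the strand of the gene, are those of SREBF2 at chr22:41832855-41833104 (plus strand), SCD at chr10:100346983-100347232 (plus strand), HMGCS1 at chr5:43313413-43313662 (minus strand), MSMO1 at chr4:165327419-165327668 (plus strand) and MVK at chr12:109573544-109573793 (plus strand).
SREBF2: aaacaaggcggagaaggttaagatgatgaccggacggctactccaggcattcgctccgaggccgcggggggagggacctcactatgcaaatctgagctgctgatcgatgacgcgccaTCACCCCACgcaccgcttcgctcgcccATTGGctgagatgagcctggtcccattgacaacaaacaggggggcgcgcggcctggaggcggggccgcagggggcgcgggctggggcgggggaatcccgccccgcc
SCD: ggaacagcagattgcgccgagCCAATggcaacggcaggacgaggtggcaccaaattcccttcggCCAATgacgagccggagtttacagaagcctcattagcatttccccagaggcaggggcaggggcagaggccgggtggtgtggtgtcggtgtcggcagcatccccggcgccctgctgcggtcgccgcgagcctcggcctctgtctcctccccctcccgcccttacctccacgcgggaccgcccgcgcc
HMGCS1: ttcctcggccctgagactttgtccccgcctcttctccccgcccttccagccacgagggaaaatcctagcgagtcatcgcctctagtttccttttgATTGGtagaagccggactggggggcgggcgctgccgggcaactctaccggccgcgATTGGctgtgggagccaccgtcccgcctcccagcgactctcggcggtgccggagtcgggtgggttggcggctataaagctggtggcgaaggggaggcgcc
MSMO1: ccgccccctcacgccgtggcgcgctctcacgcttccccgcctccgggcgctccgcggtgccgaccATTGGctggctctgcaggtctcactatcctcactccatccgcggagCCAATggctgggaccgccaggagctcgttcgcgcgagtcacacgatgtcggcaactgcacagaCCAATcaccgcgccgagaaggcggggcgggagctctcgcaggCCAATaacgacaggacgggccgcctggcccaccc
MVK: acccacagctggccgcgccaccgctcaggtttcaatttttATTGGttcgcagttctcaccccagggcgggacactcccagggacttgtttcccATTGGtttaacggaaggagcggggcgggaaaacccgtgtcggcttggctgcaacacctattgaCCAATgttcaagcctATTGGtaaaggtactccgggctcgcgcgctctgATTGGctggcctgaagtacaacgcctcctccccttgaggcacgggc

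The NF-Y box CCAAT was found in 17 of the 30 member windows (56.7%), beside 36.6% of 14982 windows of protein-coding genes and 38.7% of the 3148 windows of genes at 10 RPKM or more, a subset added after the values were seen. At least 2 boxes were found in 12 member windows (40.0%), beside 12.6% of all windows and 15.6% of those of genes at 10 RPKM or more. The box was in 12 of the 16 windows of sterol enzymes, among them MVK and NSDHL with 5 boxes each, MSMO1 with 4, and EBP, FDPS and MVD with 3 each. It was in 2 of 7 windows of SREBP regulators, those of SREBF2 and INSIG1. It was found in neither window of the site-1 and site-2 proteases. The 17 members with a box had a median of 21.0 RPKM and the 13 without one a median of 8.89. Over all 14982 windows the medians were 2.95 RPKM with a box and 2.60 without. MVK with 5 boxes stood at 2.70 RPKM and FADS2 with none at 60.8. A link between the box and the level was not tested.

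Of the other motifs, the Sp1 box GGGCGG was in 23 member windows (76.7%), beside 59.7% of all windows and 74.0% of those of genes at 10 RPKM or more. The E-box CACGTG was in 5 (16.7%), namely LSS, SC5D, SCAP, INSIG1 and ELOVL5, beside 8.90% of all windows and 10.6% at 10 RPKM or more. The sterol regulatory element core CACCCCAC was in the SREBF2 window only (3.33% of members, beside 2.83% of all windows and 2.83% at 10 RPKM or more). The looser form TCACNCCAC was in the same window at an overlapping place (3.33%, beside 1.21% and 1.37%). Both strands were searched. These are letters in a window, with no measure of binding here.

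Every matched member was expressed. All 34 stood at 1 RPKM or more in both libraries, a level that 59.8% of protein-coding genes reached. At a limit of 10 RPKM, chosen after the values were seen, 24 of 34 passed (70.6%), beside 20.2% of protein-coding genes. At 0.5 RPKM 34 passed, beside 65.1%, and at 5 RPKM 28 passed (82.4%), beside 35.4%. The median member stood at 15.6 RPKM, 6.45 times the protein-coding median of 2.42 RPKM and above 87.2% of those genes. In total 32 members lay above that median, and ACACB and MBTPS2 lay below it. Against protein-coding genes above the floor only, whose median was 5.87 RPKM, the median member was 2.66 times higher and 27 members lay above (the floor is the 0.1 RPKM listed for every gene under 0.5).

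SCD, the desaturase that makes oleic acid from stearic acid, was the highest member. It had 181 RPKM in library 1 and 180.1 in library 2, rank 135 among protein-coding genes. It was followed by FASN at 89.8 and 90.2, ACLY at 65.5 and 67.2, and FADS2 at 60.5 and 61.1 RPKM. These 4 genes, from the synthesis and desaturation of fatty acids, held 43.3% of the summed RPKM of the members, and SCD alone 19.7%. ACACB was the lowest member at 1.56 and 1.61 RPKM, so the members spanned a range of 114 times. The 34 members together made up 0.377% of the protein-coding RPKM in library 1 and 0.378% in library 2.

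**Figure D1:**
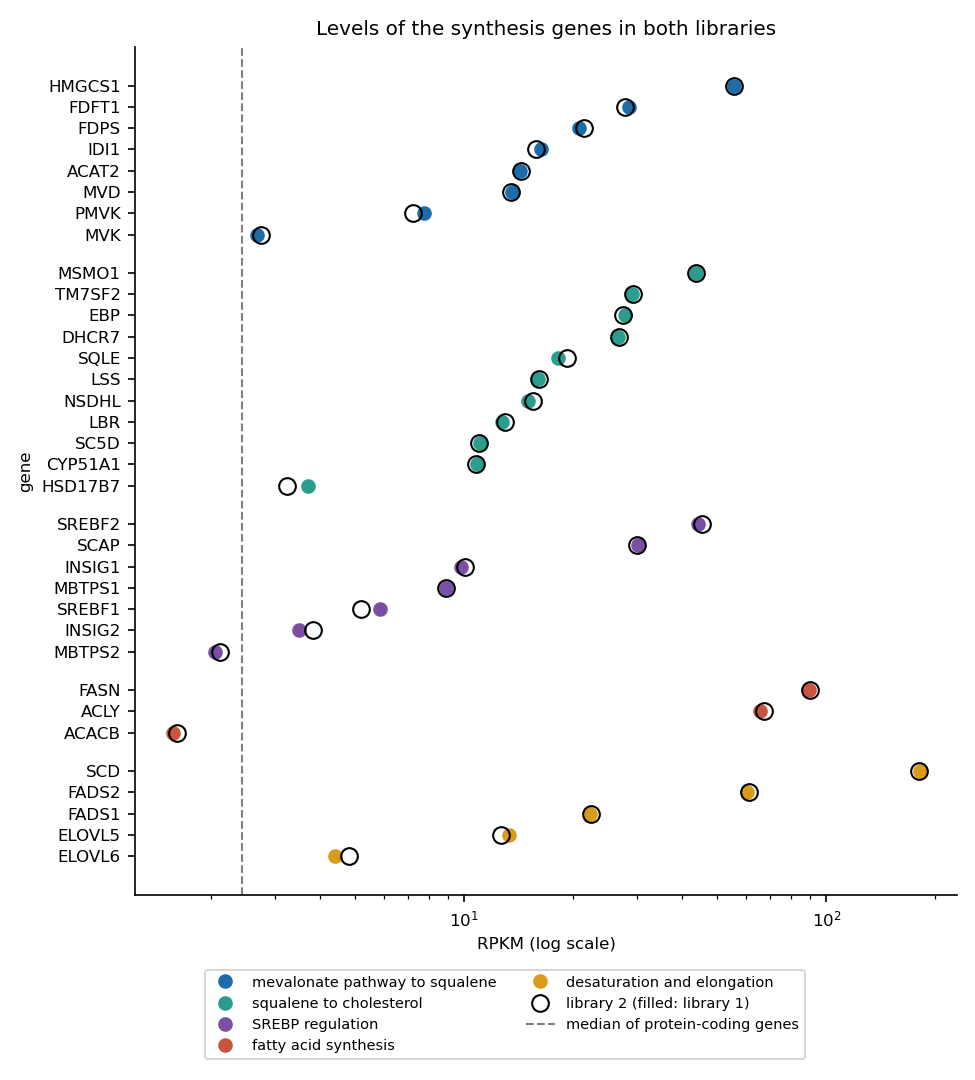
RPKM of the 34 members on a log axis, grouped by role, with a filled point for library 1 and an open circle for library 2. The dashed line is the protein-coding median of 2.42 RPKM; SCD is highest, and ACACB and MBTPS2 lie left of the line.

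**Figure D2:**
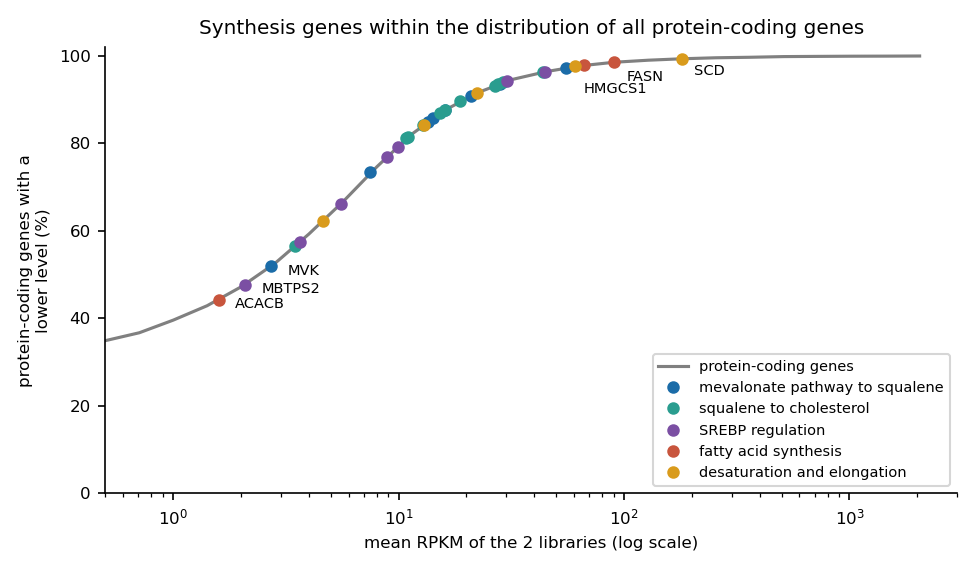
Percentage of protein-coding genes with a lower level (y axis) against mean RPKM of the 2 libraries on a log axis, as a grey line for all protein-coding genes from 0.5 RPKM up and as coloured points for the members by role. The members run from the 44.2th percentile (ACACB) to the 99.3th (SCD), and 14 of 34 lie at the 90th percentile or above.

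The enzymes from acetyl-CoA to squalene were all expressed, at a median of 15.1 RPKM over 8 genes, and they differed 20.5 times between the highest and the lowest. ACAT2, the cytosolic thiolase that joins acetyl-CoA units, stood at 14.2 RPKM in library 1 and at 14.3 in the other. HMGCS1, the cytosolic HMG-CoA synthase of the next step, stood at 55.5 and 55.6 RPKM and was the highest of the group. It is ENSG00000112972.10, on chromosome 5 from 43287572 to 43313614 on GRCh37.

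The 3 enzymes that phosphorylate and decarboxylate mevalonate were the lowest of the 8 genes. MVK, mevalonate kinase, stood at 2.67 and 2.74 RPKM. PMVK, phosphomevalonate kinase, stood at 7.76 and 7.23, and MVD, the decarboxylase, at 13.5 and 13.4 RPKM. The levels of the 3 genes did not overlap between libraries and followed the order of the steps.

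Levels were higher in the steps towards squalene. IDI1, the isopentenyl diphosphate isomerase, stood at 16.2 and 15.8 RPKM. FDPS, which makes farnesyl diphosphate, stood at 20.7 and 21.3, and FDFT1, the squalene synthase that commits farnesyl diphosphate to sterols, at 28.6 and 27.9 RPKM. In both libraries FDFT1 was above FDPS and FDPS above IDI1.

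The 11 enzymes from squalene to cholesterol had a median of 16.0 RPKM, and 10 of them reached 10 RPKM in both libraries, beside 20.2% of protein-coding genes. SQLE, squalene epoxidase, stood at 18.2 RPKM in library 1 and 19.2 in library 2. LSS, which closes the rings to lanosterol, stood at 16.0 and 16.1 RPKM. CYP51A1, the lanosterol demethylase, was lower at 10.8 in both libraries.

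The next step, the reduction of the demethylated sterol, has a pair of enzymes, TM7SF2 and LBR, of which LBR is also the lamin B receptor of the nuclear envelope. TM7SF2 stood at 29.0 and 29.2 RPKM and LBR at 12.7 and 13.0, so that TM7SF2 was 2.28 times higher in library 1 and 2.25 times in library 2. Both genes were expressed, and their ranges over the libraries did not overlap.

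The 3 enzymes that remove the remaining methyl groups were far apart in level. MSMO1, the methylsterol oxidase, stood at 43.7 and 43.5 RPKM, the highest of the 11. NSDHL, the sterol dehydrogenase that acts after it, stood at 15.0 and 15.5. HSD17B7, the ketosteroid reductase that completes the reaction, was the lowest of the group at 3.71 RPKM in library 1 and 3.25 in library 2. MSMO1 was 12.6 times higher than HSD17B7 in the mean.

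The closing steps were carried by EBP, the sterol isomerase, at 27.9 and 27.4 RPKM, by SC5D, the desaturase, at 11.1 and 11.0, and by DHCR7, the final reductase, at 26.6 and 26.7 RPKM. EBP and DHCR7 were close in level. Their ranges over the libraries did not overlap, but their order was not tested. Their counting errors, estimated from annotated exon length, were 2.86% and 1.47%. Of the 19 sterol enzymes from ACAT2 to DHCR7, 14 had a mean between 10 and 30 RPKM, a range that was not planned. Of all protein-coding genes, 74.6% had a mean below 8 RPKM and 94.6% a mean below 32 RPKM. HMGCS1 and MSMO1 were above the range of 10 to 30 RPKM and PMVK, HSD17B7 and MVK below it.

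The regulators of the pathway were uneven. SREBF2, which encodes the SREBP form best known for cholesterol genes, stood at 44.2 RPKM in library 1 and 45.2 in library 2. SREBF1, which encodes the forms best known for fatty acid genes, stood at 5.86 and 5.19. The level of SREBF2 was 7.54 times that of SREBF1 in library 1 and 8.71 times in library 2. SREBF2 is ENSG00000198911.7, on chromosome 22 from 42229109 to 42303310, and SREBF1 is ENSG00000072310.12, on chromosome 17 from 17713713 to 17740316 (GRCh37).

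SCAP, the escort of SREBP, stood at 30.2 and 30.0 RPKM, between the SREBP genes. The retention proteins were lower, INSIG1 at 9.82 and 10.0 RPKM and INSIG2 at 3.50 and 3.81. INSIG1, itself a known target of SREBP, was 2.80 and 2.63 times higher than INSIG2. Of the proteases, the site-1 protease gene MBTPS1 stood at 8.90 and 8.88 RPKM and the site-2 protease gene MBTPS2 at 2.05 and 2.11. MBTPS1 was 4.34 and 4.22 times higher, and MBTPS2 was the lowest of the 7 regulators, whose median was 8.89 RPKM.

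Fatty acid synthesis was represented by 3 measured genes of very different levels. ACLY, ATP citrate lyase, which supplies cytosolic acetyl-CoA to both pathways, stood at 65.5 RPKM in library 1 and 67.2 in library 2. FASN, the fatty acid synthase, stood at 89.8 and 90.2, and it is ENSG00000169710.6, on chromosome 17 from 80036214 to 80056170 (GRCh37). ACACB, the carboxylase at the mitochondrial surface whose product is known to restrain fatty acid oxidation, stood at 1.56 and 1.61. FASN was 56.7 times higher than ACACB in the mean.

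The desaturases and elongases had a median of 22.3 RPKM. SCD, ENSG00000099194.5 on chromosome 10 from 102106990 to 102124583 (GRCh37), was 2.01 times higher than FASN, the second highest member. Its relative SCD5 stood at 1.32 and 1.42 RPKM, so that SCD was 137 times higher in library 1 and 127 times in library 2. FADS2 and FADS1, which desaturate polyunsaturated fatty acids, stood at 60.5 and 61.1 and at 22.2 and 22.4 RPKM, and FADS2 was 2.72 times higher in both libraries.

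ELOVL5, which lengthens polyunsaturated chains, stood at 13.3 RPKM in library 1 and 12.6 in library 2. ELOVL6, which lengthens palmitic acid to stearic acid, stood at 4.38 and 4.81. ELOVL5 was 3.03 and 2.62 times higher. ELOVL6 was thus the lowest gene of this group, while SCD, which takes its product, was the highest.

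Pairs of related enzymes in different places or with different products were also compared. Of the thiolases, cytosolic ACAT2 was 3.47 and 3.58 times higher than mitochondrial ACAT1, which stood at 4.05 RPKM in the mean. FDPS was 3.02 and 3.16 times higher than GGPS1, which makes the longer geranylgeranyl diphosphate. IDI2, the second isopentenyl diphosphate isomerase, was at the floor of 0.1 RPKM, which leaves such a gene unresolved and does not show that it is absent. Against 0.5 RPKM, IDI1 was at least 32.5-fold higher in library 1 and at least 31.6-fold higher in library 2.

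**Figure D3:**
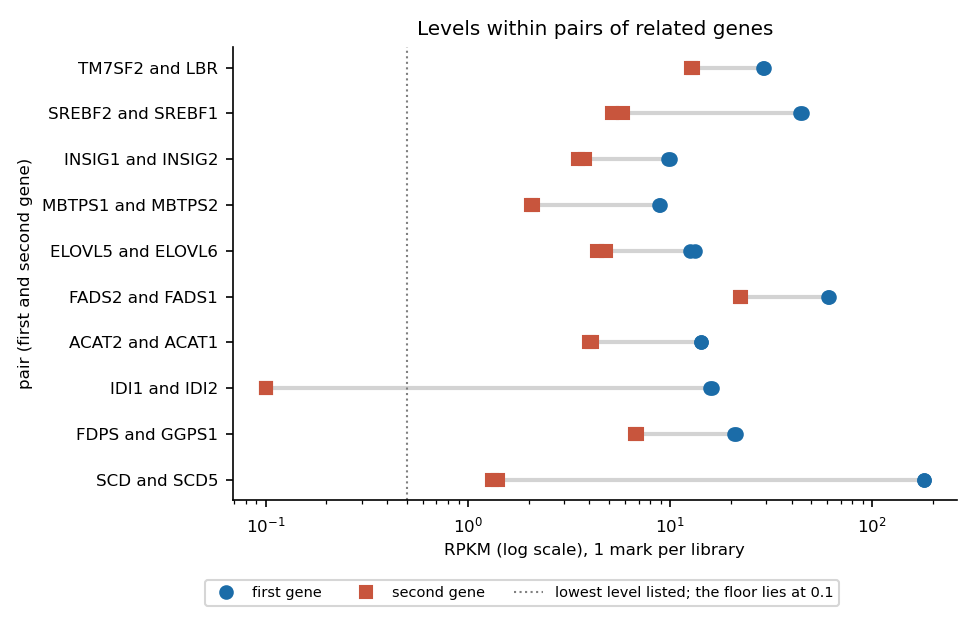
RPKM of the first gene (circles) and the second gene (squares) of 10 pairs, on a log axis, with 1 mark per library, a grey line between the genes and a dotted line at 0.5 RPKM, the lowest level listed above the floor. The first gene is higher in each of the 10 pairs shown, but the order within a pair was set by hand, so this is no result by itself. IDI2 lies at the floor of 0.1.

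The libraries lay close together for the members. The median absolute difference was 0.03 on the log2 scale, beside 0.04 for the 10651 protein-coding genes between the members' lowest and highest levels. Those genes were not matched to the members in level, and the spread was smaller at higher levels. The 95th percentile of the log2 difference was 0.135 near 4.76 RPKM and 0.0611 near 38.1 RPKM. Between libraries 20 members were higher in library 2 and 14 lower. The largest difference, as log2 of library 2 over library 1, was that of HSD17B7 at -0.19, followed by SREBF1 at -0.18 and ELOVL6 at 0.13. Reads were estimated from annotated exon length, which may differ from the length behind the authors' values. By these reads, SREBF1 was the only member whose libraries differed by more than 2 standard errors of counting, at 2.91. The share of all protein-coding genes beyond that limit is not given here, so SREBF1 is not set apart from them by this count.

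Of the 33 pairs of neighbours in the order of levels, 3 overlapped between libraries, namely LSS and IDI1, ELOVL5 and LBR, and INSIG2 and HSD17B7. The other 30 did not overlap, which speaks of technical spread only. The variance between the libraries, measured on 804 single-exon genes, was 1.09 times the counting variance, so the libraries were counted as 1 sample. The labels do not say whether they came from separate cultures, so the spread between cultures was not measured.

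**Figure D4:**
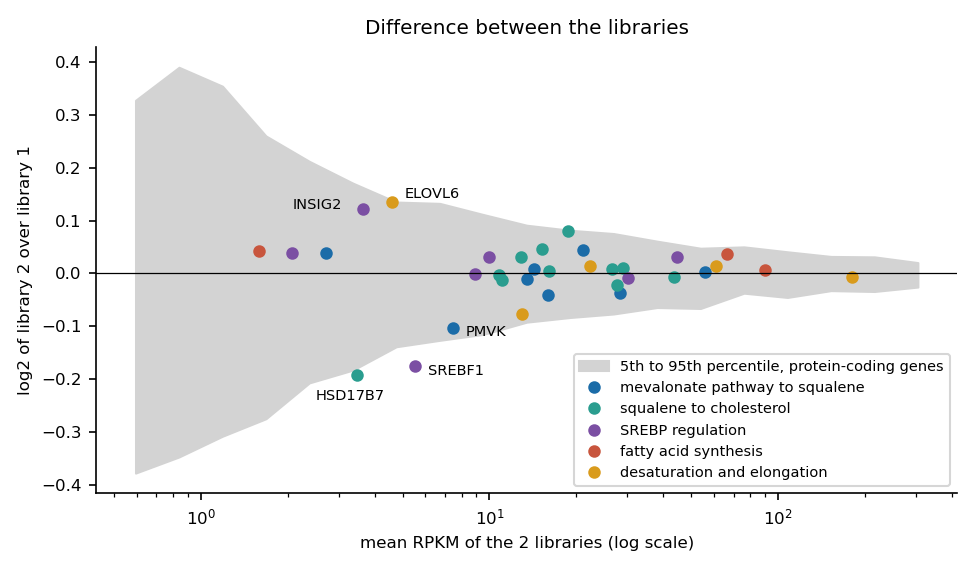
Log2 of library 2 over library 1 against mean RPKM on a log axis, with points for the members by role. The grey band runs from the 5th to the 95th percentile of protein-coding genes at each level, and SREBF1 at -0.18 and HSD17B7 at -0.19 are the lowest points.

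Some values could be shared with other genes. Of 17 pseudogenes named after a member, 6 stood at 1 RPKM or more. SCDP1 stood at 21.8 and 21.4 RPKM (11.9% of SCD), CYP51A1P2 at 3.87 and 3.81, and CYP51A1P1 at 3.96 and 3.50 (35.5% and 34.5% of CYP51A1). HSD17B7P2 reached 47.2% of HSD17B7, and FDPSP1 and FDPSP5 reached 14.9% and 7.22% of FDPS. With their reads added by length, CYP51A1 would stand at 13.5 RPKM, HSD17B7 at 3.83, FDPS at 22.4 and SCD at 185.

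Genes on the opposite strand at 1 RPKM or more overlapped 7 members. FADS1 and FADS2 overlap each other on opposite strands over 29692 bp of the annotation. The libraries kept strand, but whether counting used it is not given in the sources used here, so the split between these genes is uncertain. The others were ACAT2 with TCP1 at 30.7 RPKM, SREBF1 with RAI1 at 11.4, MVK with MMAB at 5.27, CYP51A1 with AKAP9 at 5.08 and DHCR7 with an unnamed lncRNA at 1.28. On the same strand, ACACB overlaps UNG, which stood at 19.3 RPKM, over 10139 bp, and FADS2 overlaps FEN1, at 14.3, over 4259 bp. TM7SF2 overlaps VPS51, at 25.2 RPKM, over 18 bp only. All overlaps are between whole gene spans with introns, so the exon length shared was not measured.

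Other genes of lipid metabolism were listed by function, not by level, and their counts at 1 RPKM stand beside 59.8% of all protein-coding genes. Of 9 genes that supply acetyl-CoA, citrate or NADPH, 7 reached 1 RPKM, with a median of 25.4. PGD of the pentose phosphate pathway stood at 86.6 and 86.2 RPKM and SLC25A1, which exports citrate from mitochondria for ACLY, at 78.1 and 79.1, while ACSS1 and ME3 were at the floor. Of 11 isoprenoid branch genes 10 were at 1 RPKM or more, with a median of 4.63 and NUS1 (11.5) and GGPS1 (6.80) highest. The isoprenoid branch thus had a lower median than the 8 enzymes from acetyl-CoA to squalene, at 15.1 RPKM. Those 8 include FDFT1, which commits farnesyl diphosphate to sterols, and the branch list includes the isomerase IDI2, at the floor. The difference describes these lists and was not tested.

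Other elongases, desaturases and their partners reached 1 RPKM in 9 of 12 cases, with a median of 4.14 RPKM. HACD3, a dehydratase of chain elongation, stood at 34.6 and TECR, the reductase of the same cycle, at 22.0. ELOVL3 was at the floor in both libraries. Of 11 glycerolipid genes 10 reached 1 RPKM (median 5.52), led by the acyltransferases AGPAT1 at 65.4 and DGAT1 at 56.1, with MOGAT2 at the floor.

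Sterol esterification, transfer and sensing genes all reached 1 RPKM (15 of 15, median 9.05). NPC2, the lysosomal sterol carrier, stood at 35.5 RPKM and SOAT2, the sterol acyltransferase of liver and gut, at 29.0 and 29.2. Of the lipid droplet genes 5 of 10 were at 1 RPKM or more, near the 59.8% of all protein-coding genes, with a median of 1.57. PLIN3, a coat protein of many cell types, led them at 30.6, followed by PNPLA2, a triglyceride lipase, at 11.5, and PLIN1, PLIN4, CIDEA and CIDEC were at the floor.

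Of 13 lipogenic regulators other than SREBP, 11 reached 1 RPKM (median 4.88). MID1IP1, a partner of acetyl-CoA carboxylase, stood at 41.6, while THRSP, its relative, was at the floor. USF2, an E-box factor, stood at 19.8, and the coactivator PPARGC1B was at the floor. The NF-Y and Sp1 partners were all expressed, NFYA at 15.7 and SP1 at 12.6 being the highest of 5. Mitochondrial oxidation and ketogenesis genes reached 1 RPKM in 10 of 11 cases (median 5.66), led by HADHA at 36.9 and ACADVL at 30.9, both enzymes of the oxidation of long chains, with CPT1A at the floor.

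**Figure D5:**
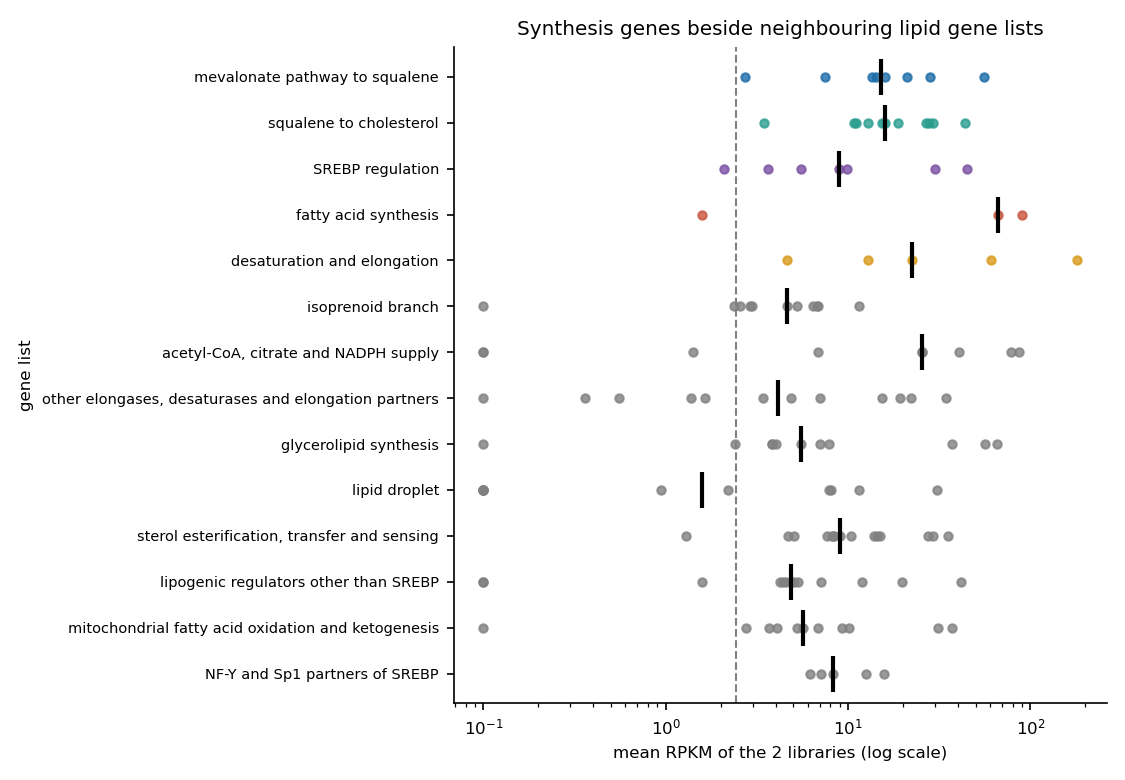
Mean RPKM of each gene on a log axis, by list, with coloured points for the members' roles, grey points for the neighbouring lists and a black bar at each list's median. The dashed line is the protein-coding median of 2.42 RPKM, points at 0.1 are at the floor, and the lipid droplet median of 1.57 is the only one left of the line.

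Markers of the labelled cell type were present. All 9 hepatoblast and liver markers were at 10 RPKM or more, with a median of 477 and HNF4A lowest at 44.7, while the 4 mature hepatocyte markers CYP3A4, CYP2E1, TAT and SLC10A1 were at the floor. Among other cells rich in lipid or sterol synthesis, all 5 adipocyte markers were at the floor, ADIPOQ and FABP4 included. None of 5 steroid-cell markers reached 1 RPKM, and their summed level was 1.04 RPKM in library 1 and 1.47 in library 2, with CYP17A1, HSD3B2 and NR5A1 at the floor. Of 4 glial markers MBP alone reached 1 RPKM in both libraries (1.43 and 1.45), with MOG and SOX10 at the floor, and the 4 summed to 2.50 and 2.86 RPKM.

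Pluripotency markers POU5F1, NANOG and SOX2 were at the floor. Mesenchymal markers summed to 13.7 RPKM in library 1 and 14.0 in library 2, from COL1A1 at 8.29 and 8.30 and COL1A2, with COL3A1 at the floor in both and ACTA2 in library 1. Enterocyte markers were at the floor except CDX2 at 2.13 and 2.11 RPKM. The part of such cells in the members' levels was not tested.

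Counting errors of the members were estimated from sequencing depth and annotated exon length. Low values of genes with a single exon lay mostly on whole reads, which put the depth at 25183050 reads for library 1 and 25264783 for library 2. For a transcript of 2000 bp, 1 RPKM then meant 50.4 and 50.5 reads. Estimated from annotated exon length, reads in library 1 ran from 196 for PMVK to 23916 for SCD. The larger of the counting errors of the 2 libraries was 7.39% for PMVK and 0.647% for SCD. These errors cover counting only, since reads amplified by PCR without molecular identifiers are not independent molecules. The exon lengths are those of the annotation joined here, and the lengths behind the authors' values are not known. Where those were shorter, reads would be fewer and errors larger than estimated, and the reverse where they were longer. Whole reads were checked on single-exon genes only.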

How the data were processed

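Poly(A) RNA of CyT49-derived liver progenitors was sequenced in 2 strand-specific libraries, per the labels' protocols. The authors deposited RPKM per gene, and the table holds no value between 0.1 and 0.5, so 0.1 was read as the floor for lower values. STAR 2.3.0e, Cufflinks 2.2.0 and FastQC 0.10.1, with hg19, stand in the submitters' processing notes, and the series description names Sailfish. The annotation release, the strand setting and which tool made the values were not given in the sources used here.

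Identifiers without version were joined to GENCODE release 44 on GRCh37 (the build hg19), and 54428 (95.2%) matched. Each protein-coding symbol took its identifier of highest mean, and each matched member had 1 identifier. Depth came from single-exon genes, whose values were whole reads within 0.02 in 81.0% of cases under 500 reads in both libraries, with end minus start as the length. The spread of the libraries was computed for genes of 50 reads or more and tested on simulated data. No test between groups was made, since the series has 1 group counted as 1 sample. Protein identity of the pairs and the pair of ACACA with ACACB were planned and are not analysed here, and some planned genes are not reported here. Promoter windows are RefSeq's on GRCh38.p14, so their positions differ from the GRCh37 gene positions.

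All members are named. Other genes are named as the second gene of a fixed pair, as a pseudogene or overlapping gene, as the 2 highest and the floor members of a list, or as a marker. Any other was chosen after its values were seen. Members and lists were chosen with earlier results of these data known. Alternatives were the detection limit, a background above the floor only, the scaling, the pseudocount, leaving out a library, summing identifiers and adding pseudogenes. Python 3.11.15, pandas 2.3.3 and numpy 2.4.6 were used.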

Additional observations from a re-analysis of the deposited data

How the results depend on the processing

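Of 185 alternative values, 163 stayed within the limits set around the main value and 22 moved beyond them. Many of the 163 could hardly have moved. For member levels and ratios the limit came from the difference between the libraries and was wider than the usual shift from leaving out 1. Each matched member had 1 identifier, so summing identifiers could not change its level. The count of 163 is therefore no measure of robustness. Only the 10 log2 ratios have a direction that could reverse, and none did. A pseudocount added to both genes cannot change which is higher, so only leaving out a library could have reversed a ratio. All 34 members passed at 0.5 RPKM (65.1% of protein-coding genes) and 28 at 5 RPKM (35.4%), and the median member ran from 15.5 to 15.6 RPKM when either library was left out. Rescaling each library to a sum like that of TPM, without mitochondrial genes, moved that median to 47.0, beside a protein-coding median of 7.30, and upper-quartile scaling gave 15.6. With a pseudocount of 1, log2 ratios were 1.12 for TM7SF2 over LBR, 2.81 for SREBF2 over SREBF1, 1.23 for INSIG1 over INSIG2, 1.68 for MBTPS1 over MBTPS2, 1.32 for ELOVL5 over ELOVL6, 1.41 for FADS2 over FADS1, 1.60 for ACAT2 over ACAT1, 1.50 for FDPS over GGPS1 and 6.26 for SCD over SCD5. With 0.1 the ratios that moved were 2.04 for MBTPS1 over MBTPS2, 1.44 for FADS2 over FADS1 and 6.94 for SCD over SCD5. No pseudocount was added for IDI1 over IDI2, since IDI2 is at the floor. The pseudocount is a larger share of a low gene's level by construction. Among protein-coding genes above the floor only, the background median was 5.87 RPKM and the median member stayed at 15.6. Some neighbouring lists moved at 5 RPKM, a level that 35.4% of protein-coding genes reached. There 5 of 11 isoprenoid branch genes passed (10 at 1 RPKM), as did 6 of 11 glycerolipid genes (10 at 1 RPKM). Of the other elongases, desaturases and partners 5 of 12 passed (9 at 1 RPKM), and of the lipogenic regulators 5 of 13 (11 at 1 RPKM). No paired analysis was possible because there is 1 group. Levels under 0.5 RPKM, which on a gene of 2000 bp is 25.2 reads in library 1, are not resolved.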
